A study of Mus musculus with 8 samples.

Results

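Imprinted genes are transcribed mainly from the copy inherited from one parent. Methyl groups placed on DNA in the egg or the sperm mark the control region of each cluster, and the mark is copied through every later cell division, so that the silent and the active copy stay told apart. Many of these genes act in growth, and the brain expresses a large share of them, among them the transcripts of the Prader-Willi and Angelman region and the non-coding RNAs of the Dlk1-Dio3 cluster. The 39 imprinted genes described here were chosen by name from the 24883 gene rows of the deposited table, where each had 1 row, and they belong to 18 loci. Of these genes, 31 reached a mean of 0.5 FPKM (fragments per kilobase of transcript, scaled to the mapped fragments) over the 8 libraries and were tested, and 8 are reported as low.

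The 8 libraries came from the visual cortex of adult C57BL/6J mice. On postnatal day 122 the cortex had been injected with a locked nucleic acid (LNA) oligonucleotide, a chemically stiffened strand that pairs with a microRNA and keeps it from its targets, and tissue was taken on day 129. In 4 control libraries, called scrambled, the oligonucleotide had a scrambled sequence. In the other 4, called anti-miR-29a, it was complementary to miR-29a. All animals were thus of the same strain, and all of them had been injected. Nothing in the labels ties a library to a single animal, so the spread between libraries may be partly technical.

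The microRNA that was blocked belongs to a family of close relatives with the same seed, the stretch that pairs with target transcripts. The mature sequences (RefSeq, GRCm38.p6) are shown because every site search below rests on the seed, bases 2 to 8, in capitals.
mmu-miR-29a-3p: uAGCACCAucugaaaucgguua
mmu-miR-29b-3p: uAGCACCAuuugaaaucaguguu
mmu-miR-29c-3p: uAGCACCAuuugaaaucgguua
The complement of that seed is TGGTGCT. It was present in the longest 3' UTR of 4 of 32 imprinted genes with an annotated 3' UTR (GENCODE M21, mm10), or 3 of the 25 among them that were tested, 12%. Among all 13109 tested genes searched the share was 15.8%. In its longest 3' UTR no imprinted gene had the longer form of the site, with an A after the 7 bases. Of the 13109 tested genes searched 441 had it, a share too small for 0 among 25 tested imprinted genes to be read as a lack. The sites of the tested members are shown with their neighbouring bases, read along the transcript, with the match in capitals. They lie at chr6:30748300-30748306 (Mest, plus strand), chr6:4758865-4758871 (Peg10, plus strand) and chr7:6963940-6963946 (Usp29, plus strand).
Mest: agagcaaaTGGTGCTgaatactt
Peg10: caaggaggTGGTGCTggtgtgag
Usp29: aggctaaaTGGTGCTtttcctgt
Mest, a gene of the hydrolase family that marks the paternal chromosome 6, read 6.33 ± 0.836 FPKM in scrambled libraries and 7.32 ± 1.13 in the anti-miR-29a group (SD, n = 4 per group, as throughout). Peg10, a domesticated retrotransposon gene, read 2.67 ± 0.428 and 2.54 ± 0.137 FPKM. Usp29, a ubiquitin protease gene, read 3.28 ± 0.303 and 2.75 ± 0.206 FPKM. The 3 tested genes with a site in the longest 3' UTR thus lay on either side of no difference, at log2 differences of 0.20, -0.06 and -0.25. The remaining gene with sites there, Zim1, held 3 of them and was a low gene. With every annotated 3' UTR searched, 5 imprinted genes had a match, 4 of them tested. The added gene was Gnas, at a log2 difference of 0.05.

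The levels of the imprinted genes spanned a 964-fold range of means, compared here per transcript length as FPKM gives them. Gnas, the stimulatory G protein subunit that couples receptors to cyclic AMP, was the highest at a mean of 679 FPKM over the 8 libraries, followed by Snrpn at 394 and Meg3 at 389. These 3 lay above at least 99.3% of all tested rows. Rian and Nap1l5 read 130.1 and 125 FPKM. In all, 5 of 31 tested members had a mean of at least 100 FPKM, against 4.05% of all tested rows, and 19 reached 10 FPKM. The lowest tested members were Ddc, H19 and Airn, at 1.14, 1.24 and 0.704 FPKM. Airn lay just inside the limit for testing and Kcnq1ot1, at 0.433 FPKM, just outside it.

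**Figure D1:**
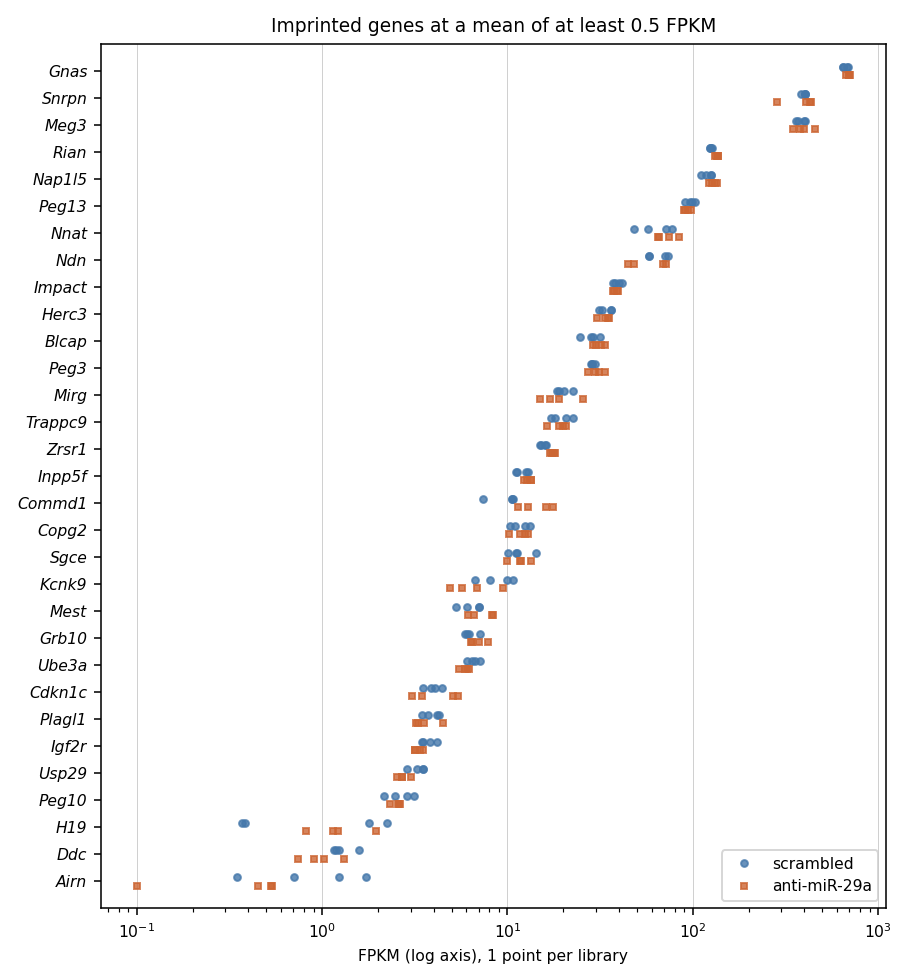
FPKM of the 31 tested imprinted genes on a log axis, with 1 point per library, circles for scrambled and squares for anti-miR-29a libraries, and genes ordered by mean. Gnas stands highest at a mean of 679 FPKM and Airn lowest at 0.704, and the points of the 2 groups intermingle for most genes.

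Setting anti-miR-29a against scrambled libraries asks how transcripts respond when miR-29a is blocked. Imprinted genes bear on it because one of the enzymes that methylate DNA, Dnmt3a, is a reported target of this microRNA. No imprinted gene passed after adjustment over all rows (limma, lowest adjusted p = 0.268; 0 also with robust empirical Bayes), where 2 of 13912 tested rows, 0.0144%, did. At an unadjusted p under 0.05, 3 of the 31 were higher in anti-miR-29a libraries, 9.68%, near the 7.54% of all tested rows, and 0 were lower, against 3.18%. The groups did not overlap in the same 3 genes, Commd1, Rian and Zrsr1, all of them higher. Of all tested rows 4.02% were higher and 2.29% lower without overlap. Differences were positive in 16 members and negative in 15, with a median of 0.01 log2 units, against 0.03 over all tested rows. In 24 members the difference was smaller than 0.2 log2 units in either direction. All differences are of log2(FPKM + 0.1), which understates the change of low genes.

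By the allele known to be expressed, the 12 tested genes of the maternal copy, Igf2r among them, had a median of 0.03 log2 units. Of these, 7 were positive and 5 negative. Whether each assignment holds in mouse cortex was not checked. The 14 tested genes of the paternal copy had a median of -0.05, with 6 positive and 8 negative. Another 5 genes, whose imprinting depends on the isoform or the tissue, had a median of 0.05. The files hold no allele-specific reads, so which copy gave the RNA was not measured. A shift to expression from the other copy that left the total alike would not be seen in these values.

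**Figure D2:**
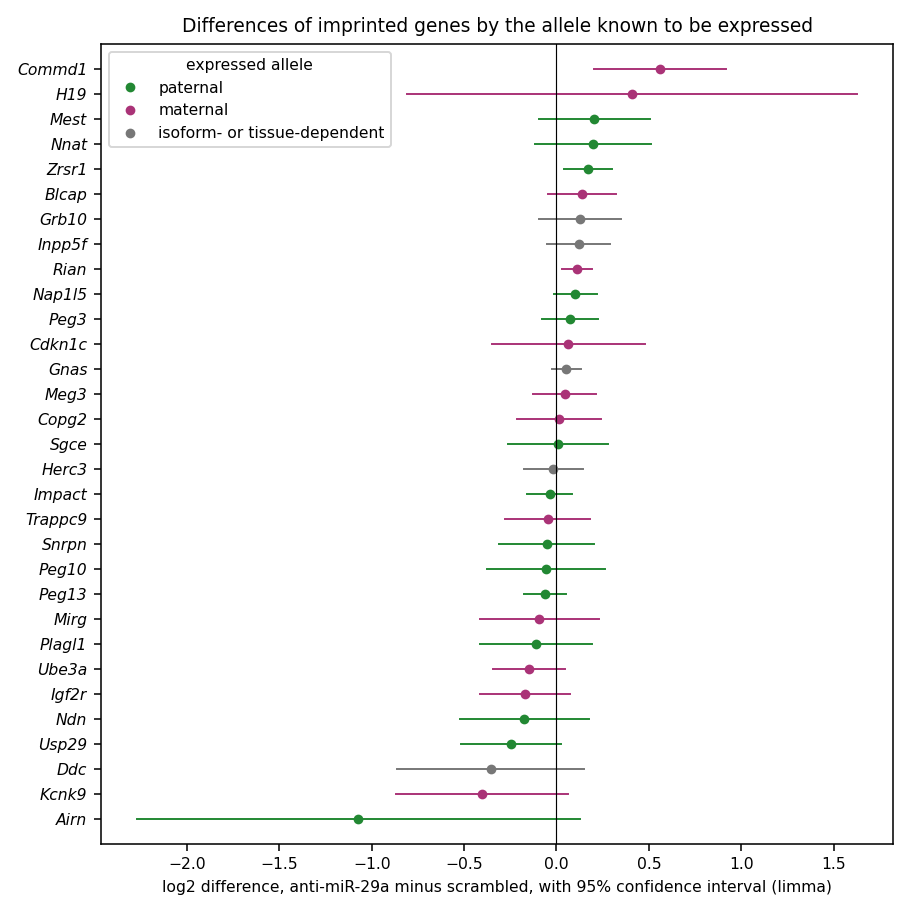
Log2 differences (anti-miR-29a minus scrambled) of the 31 tested imprinted genes with 95% confidence intervals from limma. Colours give the allele known to be expressed, which was not checked for each gene in cortex. The points run from -1.07 for Airn to 0.56 for Commd1, and the intervals of Commd1, Zrsr1 and Rian alone lie above 0 before adjustment.

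Zrsr1 and Commd1 share a locus on chromosome 11. Zrsr1, a retrogene for a factor that recognises the 3' splice site, is expressed from the paternal copy and lies inside Commd1 on the opposite strand, at 22972005 to 22976496 (mm10). Commd1, which acts in copper handling and protein sorting, spans 22896136 to 22982382 on the minus strand. Zrsr1 read 14.98, 15.85, 16.21 and 15.17 FPKM in scrambled replicates 1 to 4, and 17.79, 17.31, 16.98 and 18.04 FPKM in anti-miR-29a replicates 1 to 4. Every anti-miR-29a library lay above every scrambled one, by a small margin and with little spread within either group. The log2 difference was 0.17 and its standard error 0.059 (limma, adjusted p = 0.343; exact two-sided permutation p = 0.0286, the smallest that 70 relabellings allow). Commd1 read 10.7, 10.6, 7.34 and 10.5 FPKM in scrambled libraries and 11.43, 12.97, 16.23 and 17.52 FPKM in anti-miR-29a libraries. Scrambled replicate 3 stood low and the anti-miR-29a libraries were spread widely, although all lay above the scrambled ones. The log2 difference was 0.56 and its standard error 0.16 (limma, adjusted p = 0.268; exact two-sided permutation p = 0.0286), and 0.43 without scrambled replicate 3. Annotated exons of these genes overlap by 412 bases. The library kit did not mark the strand, so reads from those bases cannot be told apart. Zrsr1 is also a copy of Zrsr2, and how reads that fit both were handled is not stated in any source used here.

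The first listed promoter window of each gene is shown because both members of this locus lay higher without overlap. Windows run from 250 bases before to 50 after the start. Capitals mark TGCCGC or its reverse complement GCGGCA, the core of the motif that the imprint-keeping zinc finger protein ZFP57 binds when it is methylated. The windows lie at chr11:22982235-22982534 on the minus strand (Commd1) and chr11:22971755-22972054 on the plus strand (Zrsr1), from RefSeq, GRCm38.p6.
Commd1: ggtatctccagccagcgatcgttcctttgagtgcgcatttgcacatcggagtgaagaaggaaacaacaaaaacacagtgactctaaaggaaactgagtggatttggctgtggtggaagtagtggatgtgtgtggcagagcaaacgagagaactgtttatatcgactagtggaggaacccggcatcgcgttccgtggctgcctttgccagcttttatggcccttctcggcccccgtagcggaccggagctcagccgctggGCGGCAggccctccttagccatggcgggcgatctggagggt
Zrsr1: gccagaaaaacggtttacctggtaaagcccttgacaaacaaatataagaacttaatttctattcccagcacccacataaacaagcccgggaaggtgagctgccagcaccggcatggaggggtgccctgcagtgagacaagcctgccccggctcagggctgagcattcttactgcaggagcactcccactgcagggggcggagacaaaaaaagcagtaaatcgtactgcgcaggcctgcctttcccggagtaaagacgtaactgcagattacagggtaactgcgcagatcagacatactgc
The Commd1 window shown held 1 match and 18 CpG pairs, and the Zrsr1 window 0 matches and 10 CpG pairs. A further Commd1 window, at chr11:22972817-22973116 on the minus strand and inside the Zrsr1 span, held 0 matches and 17 CpG pairs. Of the 31 imprinted genes with a window in the table, 10 held the motif in at least 1 window, 32.3%, against 13.1% of all 27025 genes with a window. They were Commd1, Copg2, Grb10, Meg3, Mest, Nap1l5, Nnat, Plagl1, Snrpn and Zim1. Among genes that reached 0.5 FPKM the shares were 39.1% of 23 imprinted genes and 22.5% of 10444 genes in all. These counts describe letters in a window and show no binding.

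The Dlk1-Dio3 cluster on chromosome 12 makes its non-coding RNAs from the maternal copy and its protein-coding genes from the paternal copy. Rian, which hosts small nucleolar RNAs in its introns and lies at 109603940 to 109661716 (mm10), read 123.8, 124.1, 127.6 and 125.0 FPKM in scrambled libraries. In anti-miR-29a libraries it read 134.8, 136.2, 131.9 and 137.5 FPKM. The groups did not overlap, and the spread within them was smaller than in all but 0.0503% of tested rows. The log2 difference was 0.11 and its standard error 0.036 (limma, adjusted p = 0.317; exact two-sided permutation p = 0.0286). It was 0.08 under quantile normalization (limma, adjusted p = 0.526, unadjusted p = 0.0824) and 0.08 under median centring (limma, adjusted p = 0.493, unadjusted p = 0.0599), the 2 alternatives in which Rian had no unadjusted p under 0.05. It was 0.24 with a trend on transcript length and GC content removed from each library (adjusted p = 0.253). Across all tested rows the difference went with transcript length, from a median of 0.12 for transcripts of 200 to 1000 nt to -0.06 for those of at least 6000 nt. The longest Rian transcript has 8089 nt, so Rian differed in the other direction than the median of its length class.

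Meg3, the long non-coding RNA at the head of the same maternal transcripts, read 399, 359, 368 and 403 FPKM in scrambled libraries and 458, 349, 397 and 379 FPKM in the anti-miR-29a group. These groups overlapped fully, with a log2 difference of 0.05 and a 95% interval of -0.13 to 0.22. Mirg, the host of a large microRNA cluster, read 20.1 ± 1.75 and 19.2 ± 4.61 FPKM, a difference of -0.09. Whether Rian differed from these neighbours was not tested. Of the paternal genes, Dlk1, a Notch-related ligand, and Dio3, which inactivates thyroid hormone, were low. Dio3 read 0.0569, 0, 0.0281 and 0.201 FPKM in scrambled libraries and 0.532, 0.344, 0.144 and 0.205 in anti-miR-29a libraries. Scrambled replicate 4 lay above anti-miR-29a replicate 3, so the groups overlapped near the floor of the measurement. Dlk1 read 0.119 ± 0.0928 and 0.159 ± 0.108 FPKM.

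**Figure D3:**
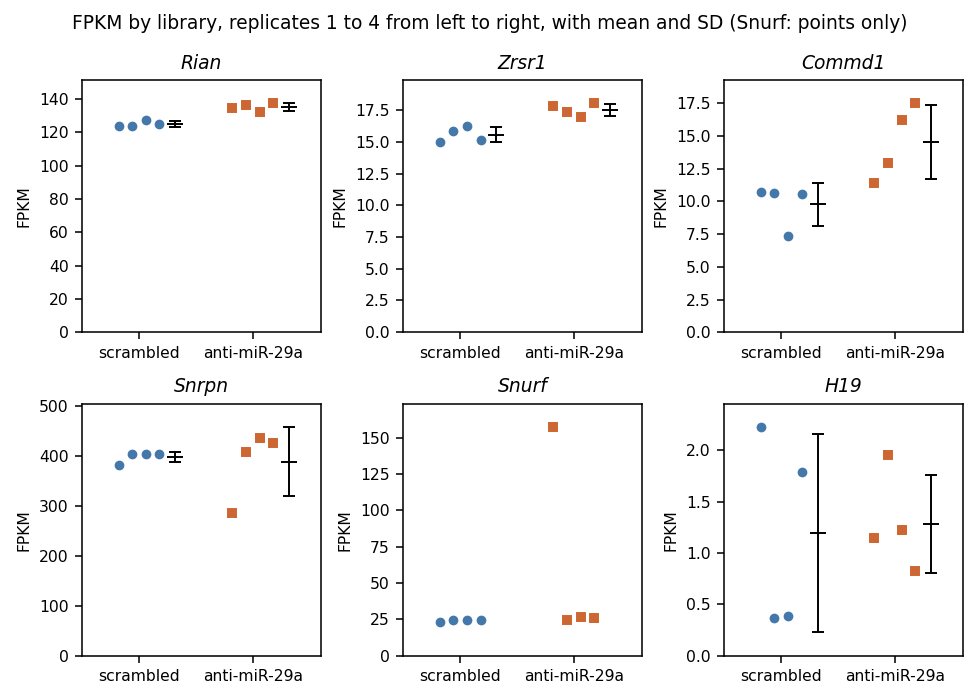
FPKM by library for Rian, Zrsr1, Commd1, Snrpn, Snurf and H19, with replicates 1 to 4 from left to right, the mean as a bar and the SD as a whisker except for Snurf, and each axis starting at 0. Rian and Zrsr1 separate by a narrow margin, Commd1 by a wider one, and anti-miR-29a replicate 1 stands apart low for Snrpn (286 FPKM) and high for Snurf (158 FPKM).

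The Prader-Willi and Angelman region on chromosome 7 holds paternally expressed Snrpn, Ndn, Magel2 and Peg12 and the maternally expressed Ube3a. Snrpn, which encodes the neuronal splicing protein SmN, read 383, 404, 404 and 403 FPKM in scrambled libraries and 286, 408, 436 and 427 FPKM in the anti-miR-29a group. Anti-miR-29a replicate 1 stood far below the other 7. The log2 difference was -0.05 (95% interval -0.31 to 0.21) over all libraries and 0.09 without that library. Snurf is read from the same transcript as Snrpn, further upstream, and annotated exons of the pair overlap by 216 bases. It was taken up here after its values had been seen. Snurf read 23.3 to 26.3 FPKM in the other 7 libraries and 158 in anti-miR-29a replicate 1. Relative to Snrpn it amounted to 5.99% to 6.09% in those 7 libraries and to 55.2% in that one. The sum of the 2 rows was 405.8, 427.8, 428.7 and 427.6 FPKM in scrambled replicates 1 to 4. In anti-miR-29a replicates 1 to 4 it was 443.2, 432.9, 462.7 and 452.7 FPKM. Every anti-miR-29a sum thus lay above every scrambled one, which was seen afterwards and not tested. Snurf alone did not overlap either, by a narrow margin, from 24.67 FPKM upward against at most 24.62 in scrambled libraries. Over all tested rows, 4.02% were higher without overlap. How reads of the shared transcript were divided between the rows was not tested.

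Ndn, a MAGE family gene of the same region, read 65.1 ± 8.07 FPKM in scrambled libraries and 58.6 ± 14.02 in the anti-miR-29a group, a log2 difference of -0.17 (95% interval -0.52 to 0.18). Ube3a, the ubiquitin ligase whose loss causes Angelman syndrome, read 6.64, 6.04, 7.08 and 6.44 FPKM in scrambled libraries. In anti-miR-29a libraries it read 6.01, 5.91, 5.47 and 6.21 FPKM, below the scrambled libraries except for replicate 4, which lay above scrambled replicate 2. The difference was -0.15 (limma, adjusted p = 0.58; exact two-sided permutation p = 0.0571) and -0.01 with the length and GC trend removed. Its longest transcript has 9856 nt, in the length class whose median was lower. Snhg14, the paternal transcript that runs through Ube3a on the opposite strand and keeps the paternal copy silent, read 1.19 ± 0.809 and 0.587 ± 0.281 FPKM. Without strand, its reads within Ube3a exons cannot be told from those of Ube3a. All 3 tested members of this region had negative differences over all libraries, and none passed. The sign of Snrpn rested on anti-miR-29a replicate 1, without which its difference was 0.09.

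The Peg3 cluster, also on chromosome 7, starts Peg3 and Usp29 in opposite directions from one stretch of DNA. Peg3, a large zinc finger protein gene needed for maternal behaviour in mice, read 28.8 ± 0.677 FPKM in scrambled libraries and 30.4 ± 2.63 in the anti-miR-29a group. Usp29 read 3.48, 2.86, 3.52 and 3.25 FPKM in scrambled libraries and 3.03, 2.55, 2.70 and 2.70 in the anti-miR-29a group. Anti-miR-29a replicate 1 lay above scrambled replicate 2, and all others of that group lay below every scrambled library. The log2 differences were 0.07 for Peg3 (adjusted p = 0.727) and -0.25 for Usp29 (adjusted p = 0.502), both from limma, and exact two-sided permutation p was 0.343 and 0.0571. The window of Peg3, at chr7:6730370-6730669 on the minus strand, is shown because it is shared: it covers the annotated start of Usp29 on the plus strand, at 6730578. Capitals mark CpG pairs, the bases that carry the imprint.
Peg3: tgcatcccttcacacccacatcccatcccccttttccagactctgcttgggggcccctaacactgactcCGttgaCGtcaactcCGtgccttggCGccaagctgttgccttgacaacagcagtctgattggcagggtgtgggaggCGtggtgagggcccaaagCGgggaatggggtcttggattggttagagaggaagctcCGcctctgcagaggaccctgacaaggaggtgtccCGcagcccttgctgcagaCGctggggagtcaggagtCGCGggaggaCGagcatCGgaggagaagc
It held 13 CpG pairs and no TGCCGC on either strand. Across the 8 libraries the levels of Peg3 and Usp29 had r = -0.10 (exact permutation p = 0.828) and rho = 0.00 (exact permutation p = 1.0).

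The Airn-Igf2r locus on chromosome 17 holds the non-coding RNA Airn, whose transcription across the Igf2r promoter silences paternal Igf2r in most tissues. Airn read 1.23, 0.701, 1.73 and 0.347 FPKM in scrambled libraries and 0.453, 0.532, 0.539 and 0.0997 in anti-miR-29a libraries. The groups overlapped, since scrambled replicate 4 lay below 3 of the anti-miR-29a libraries. The log2 difference was -1.07 with a wide 95% interval of -2.27 to 0.13, and its within-group SD of 0.85 log2 units was larger than in 96.7% of tested rows. The difference was -0.47 with a pseudocount of 1, -0.67 without anti-miR-29a replicate 4 and -1.44 without scrambled replicate 4. The anti-miR-29a mean, 0.406 FPKM, was itself under the limit for testing, so Airn was tested through its scrambled values. Igf2r, the receptor that clears the growth factor IGF2 and sorts lysosomal enzymes, read 3.74 ± 0.336 and 3.31 ± 0.163 FPKM, a difference of -0.17 (limma, adjusted p = 0.613; exact two-sided permutation p = 0.0857). Airn and Igf2r run in opposite directions over 28354 shared bases with no exon in common.

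In the Peg13-Trappc9 locus on chromosome 15 all 3 members had negative differences. Peg13, a non-coding RNA inside an intron of Trappc9, read 97.4 ± 5.30 and 93.3 ± 3.70 FPKM, and Trappc9, a subunit of a vesicle tethering complex, 19.6 ± 2.46 and 18.9 ± 1.88 FPKM. Kcnk9, a leak potassium channel gene expressed from the maternal copy, read 8.01, 9.94, 6.66 and 10.7 FPKM in scrambled libraries. It read 4.89, 9.51, 6.88 and 5.69 FPKM in anti-miR-29a libraries, where replicate 2 stood with the higher scrambled libraries. Its difference of -0.40 log2 units had a 95% interval of -0.87 to 0.06 (not past the threshold by limma, adjusted p = 0.513; exact two-sided permutation p = 0.171).

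Neighbours in a locus were compared on the log2(FPKM + 0.1) scale over the 8 libraries, in 15 pairs with both members tested. Peg13 and Trappc9 had the only unadjusted Pearson p under 0.05, with r = 0.78 (exact permutation p = 0.0255, adjusted p = 0.382) and rho = 0.83 (exact permutation p = 0.0154, adjusted p = 0.231). Without the 2 libraries farthest from the median of Peg13, r was 0.42, and r of the deviations from group means was 0.80. Without anti-miR-29a replicate 3, r was 0.96 and passed (exact permutation, adjusted p = 0.0208). They lie on the same strand and share no exon. For Zrsr1 and Commd1 r was 0.58 (exact permutation p = 0.136, adjusted p = 0.913) and rho 0.69 (exact permutation p = 0.0694, adjusted p = 0.52), and r of the deviations from group means was -0.42. Of the 15 pairs 8 had a positive r, and Meg3 and Rian had r = 0.07 (exact permutation p = 0.882).

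**Figure D4:**
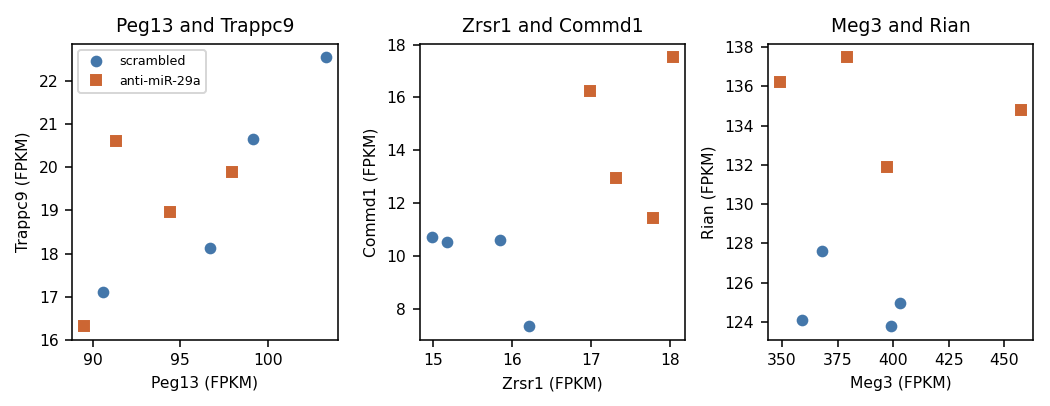
FPKM of 3 pairs of neighbouring imprinted genes, with 1 point per library, circles for scrambled and squares for anti-miR-29a libraries, on axes that do not start at 0. Peg13 and Trappc9 lie along a line (r = 0.78), the Zrsr1 and Commd1 points separate by group, and Meg3 and Rian show no common trend (r = 0.07).

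Other members that sit inside a host gene did not pass. Nap1l5, a nucleosome assembly protein-like gene in an intron of Herc3, read 111, 126, 125 and 119 FPKM in scrambled libraries and 135, 122, 132 and 127 FPKM in the anti-miR-29a group. The groups overlapped, and the difference was 0.10 (limma, adjusted p = 0.51; exact two-sided permutation p = 0.114). Herc3, a ubiquitin ligase gene, read 34.0 ± 2.59 and 33.5 ± 2.22 FPKM, a difference of -0.02 (95% interval -0.18 to 0.14). Nnat, a small membrane protein of the endoplasmic reticulum in neurons, lies in an intron of Blcap on chromosome 2. It read 63.7 ± 13.2 and 72.3 ± 8.92 FPKM, and Blcap 28.3 ± 2.89 and 31.1 ± 2.09 FPKM. Their differences of 0.20 and 0.14 did not pass (limma, adjusted p = 0.653 and 0.576). Mest and Copg2, a coat protein subunit gene, end toward each other with 912 shared exonic bases on opposite strands, and Copg2 read 11.7 ± 1.33 and 11.8 ± 1.15 FPKM, a difference of 0.01.

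Growth regulators formed the next group. H19, a non-coding RNA expressed from the maternal copy and a brake on growth, read 2.23, 0.370, 0.383 and 1.79 FPKM in scrambled libraries and 1.15, 1.95, 1.22 and 0.821 in anti-miR-29a libraries. Scrambled replicates 2 and 3 were low and 1 and 4 high, and every anti-miR-29a value lay inside the range of the scrambled ones. The log2 difference was 0.41 with a 95% interval of -0.81 to 1.63, and leaving out 1 library moved it from 0.05 (without scrambled replicate 2) to 0.82 (without scrambled replicate 1). Igf2 is the growth factor gene that in most tissues is silenced on the chromosome where H19 is active. It read 16.1, 9.62, 11.8 and 17.8 FPKM in scrambled libraries. In anti-miR-29a libraries it read 25.2, 27.3, 14.1 and 27.5 FPKM, a difference of 0.75 (limma, adjusted p = 0.314). Igf2 is also a marker of meningeal fibroblasts. The summed level of 20 other fibroblast markers, Ptgds left out, was 124.8, 79.3, 84.0 and 100.9 FPKM in scrambled libraries and 130.1, 132.0, 89.8 and 121.0 FPKM in the anti-miR-29a group. It was lowest in the scrambled libraries with the lowest H19 and Igf2. In the anti-miR-29a group the lowest sum was in replicate 3, which had the lowest Igf2. The lowest H19 of that group was in replicate 4, where the sum was 121.0 FPKM. What part fibroblasts had in these values was not tested. Fewer cells of a type and less RNA per cell cannot be told apart in whole tissue.

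Cdkn1c, a cell cycle inhibitor, read 3.97 ± 0.391 and 4.26 ± 1.18 FPKM, and Plagl1, a zinc finger factor linked to transient neonatal diabetes, 3.91 ± 0.384 and 3.63 ± 0.593 FPKM. Grb10, an adaptor that damps insulin receptor signals and is paternally expressed in neurons, read 6.33 ± 0.549 and 6.93 ± 0.673 FPKM. Its neighbour Ddc, which makes dopamine and serotonin from their precursors, read 1.29 ± 0.193 and 0.997 ± 0.239 FPKM. None of their log2 differences of 0.06, -0.11, 0.13 and -0.36 passed (by limma, adjusted p = 0.924, 0.805, 0.678 and 0.613). Sgce, the epsilon-sarcoglycan gene of myoclonus dystonia, differed by 0.01 (95% interval -0.26 to 0.28). Inpp5f, an inositol phosphatase gene, read 11.9 ± 0.940 and 12.97 ± 0.588 FPKM, a difference of 0.12 (adjusted p = 0.613 by limma).

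Gnas and Impact varied little within groups, with SDs larger than in 1.14% and 4.99% of tested rows. Gnas read 678, 650.3, 692 and 644 FPKM in scrambled libraries and 668, 695, 708 and 694 FPKM in the anti-miR-29a group, a difference of 0.05 log2 units with a 95% interval of -0.03 to 0.13. Its isoforms are imprinted differently and share the row, so they were not measured apart. Impact, an inhibitor of the kinase GCN2 that is enriched in neurons, read 39.2 ± 2.02 and 38.2 ± 1.12 FPKM, a difference of -0.04 (95% interval -0.16 to 0.08). The median within-group SD of the tested members was 0.153 log2 units, against 0.174 over all tested rows, and 18 of the 31 lay under the latter value.

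The 8 low members were Dlk1, Dio3, Zim1, Magel2, Peg12, Kcnq1ot1, Phlda2 and Slc38a4. Phlda2, a growth-limiting gene of the placenta, read 0.174 FPKM in scrambled replicate 1 and was listed at 0 in the other 7 libraries. Peg12 was listed above 0 in scrambled replicate 4 and anti-miR-29a replicate 3 alone. Magel2 read 0.154 ± 0.0926 and 0.191 ± 0.0859 FPKM, Slc38a4, an amino acid transporter gene, 0.167 ± 0.0347 and 0.159 ± 0.122 FPKM, and Kcnq1ot1, which silences its neighbours on the paternal copy, 0.438 ± 0.0399 and 0.427 ± 0.0794 FPKM. Zim1, a maternally expressed zinc finger gene, read 0.231, 0.344, 0.413 and 0.204 FPKM in scrambled libraries and 0.213, 0.162, 0.0438 and 0.0446 FPKM in anti-miR-29a libraries. Its groups overlapped at scrambled replicate 4.

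A further list was of other imprinted genes, and whether each is imprinted in mouse cortex was not checked. Its 46 tested members had a median of -0.03 log2 units, with 19 positive and 27 negative differences. None passed over all genes, 2 were higher and 4 lower at an unadjusted p under 0.05, which is 4.35% and 8.7% of the 46, against 7.54% and 3.18% of all tested rows. Igf2 and Zdbf2 were the higher ones. Ppp1r9a, which encodes the actin-binding neurabin and lies near Sgce, read 33.8 ± 1.78 and 29.9 ± 0.689 FPKM without overlap (limma, adjusted p = 0.311). Ago2, the Argonaute protein that carries microRNAs, lies near Trappc9 and read 4.85 ± 0.653 and 3.76 ± 0.469 FPKM, also without overlap (limma, adjusted p = 0.376). Begain, next to Dlk1, read 69.5 ± 4.12 and 75.7 ± 3.56 FPKM.

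Among the factors that set or keep DNA methylation and imprints, 29 were tested, with a median of 0.01 log2 units, 15 positive and 14 negative differences, and none passed over all genes. At an unadjusted p under 0.05, 3 were higher and 2 lower, 10.3% and 6.9% of the 29, against 7.54% and 3.18% of all tested rows. Dnmt3a, which sets methylation marks, read 9.76, 8.02, 9.21 and 9.01 FPKM in scrambled libraries and 13.45, 16.73, 13 and 15.08 FPKM in the anti-miR-29a group (limma, adjusted p = 0.0749). Of those that keep imprints after fertilisation, Zfp57 read 4.90 ± 1.37 and 4.26 ± 0.991 FPKM, its partner Trim28 28.7 ± 1.91 and 29.1 ± 0.588 FPKM, and Dnmt1, which copies the mark at cell division, 11.7 ± 1.05 and 11.1 ± 0.440 FPKM. Their differences were -0.18, 0.02 and -0.07 log2 units (limma, adjusted p = 0.80, 0.916 and 0.794).

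The tissue label was checked on lists of cell type markers. All 14 neuron markers were tested and summed to 6324 to 6902 FPKM in scrambled libraries and 6566 to 6994 FPKM in the anti-miR-29a group. Meningeal fibroblast markers summed to 396.3 to 598.9 and 552.7 to 841.1 FPKM. Most of each sum was Ptgds, at 307.4 to 477.3 and 448.8 to 685.8 FPKM. Without Ptgds and Igf2 the sums were 79.3 to 124.8 and 89.8 to 132.0 FPKM, which overlapped. Of 21 tested, 17 were higher, where 56.6% of all tested rows had a positive difference. At an unadjusted p under 0.05, 8 were higher, 38.1% of the 21, against 7.54% of all tested rows. After adjustment 0 passed. Endothelial and mural, astrocyte, microglia and oligodendrocyte markers had medians of 0.12, 0.08, 0.20 and -0.09 log2 units. Higher at an unadjusted p under 0.05 were 2 of 16, 3 of 12, 3 of 13 and 0 of 12 of those tested. These are 12.5%, 25.0%, 23.1% and 0%, so shares above the 7.54% of all tested rows were not particular to fibroblast markers. Lower were 1, 0, 0 and 0, and 0 passed after adjustment. Foxj1 was the 1 of 11 choroid plexus and ependymal markers that was tested, and the others were low. It read 1.20 ± 0.0810 and 2.02 ± 0.314 FPKM, a log2 difference of 0.70 (limma, adjusted p = 0.233). Of the subcortical neuron markers 9 of 18 were tested, with a median of 0.13. Of the rows at an unadjusted p under 0.05, 70.3% were higher in anti-miR-29a libraries as deposited, 47.2% under quantile normalization, 50.6% under median centring and 51.8% with the length and GC trend removed. Of the 31 imprinted genes 12, 14 and 15 were then higher, and Commd1, Zrsr1 and Rian kept positive differences under all 3.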

How the data were processed

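RNA from 8 visual cortex samples, 4 per group, was sequenced with an unstranded kit as 100-base paired reads, per the labels' protocols. The authors deposited FPKM per gene. CASAVA 1.8.2, Bowtie, Cuffnorm and mm10 are named, per the submitters' processing notes, while no source used here states the annotation, filters or scaling. The depth of each library is unknown, since FPKM holds no counts. The values were analysed as log2(FPKM + 0.1) in limma 3.58.1 (R 4.3.3) with a variance trend, over the 13912 rows whose mean reached 0.5 FPKM, and p-values were adjusted by Benjamini-Hochberg over these rows. The procedure was tested on simulated data. Single genes were also compared by exact permutation tests. Positions, transcript lengths and 3' UTRs were taken from GENCODE M21, where a match was found for 98.5% of symbols and all 39 imprinted genes, and sequences from RefSeq. The members and the lists of other imprinted genes, methylation factors and cell type markers were chosen with earlier results of these data known. Every member was accounted for. Described in full were those with an unadjusted p under 0.05 or groups without overlap and at least 1 per locus, and at most 4 tested genes per other list were to be chosen by smallest p. Begain, Snhg14, Zfp57, Trim28, Dnmt1, Snurf and Zdbf2 were named outside that rule, after their values had been seen. Alternatives changed the pseudocount, filter, scaling, variance model, replicate block and the libraries used.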

Additional observations from a re-analysis of the deposited data

Results flagged for a closer look

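In 3 of 62 groups of 4 libraries, 1 library stood apart from the other 3 by Dixon's criterion, which flags about 1 in 20 groups by chance, or 3.1 here. Snrpn was lowest in scrambled replicate 1 at 382.5 FPKM, against 403.4 to 404.0 in the other scrambled libraries. Commd1 was lowest in scrambled replicate 3 at 7.34 FPKM, against 10.55 to 10.7. Ddc was highest in scrambled replicate 3 at 1.575 FPKM, against 1.162 to 1.226.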

How the results depend on the processing

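No imprinted gene passed under any of the 17 alternatives, where the lowest adjusted p of a tested member was 0.241. Commd1 and Zrsr1 had an unadjusted p under 0.05 in 17 of 17 alternatives and Rian in 15. Differences kept their sign in 21 of 31 members and changed it in 10, none of which had passed. Over all rows, 2 passed as reported, 1 with no filter, 10 with robust empirical Bayes, 0 with the replicate block, and 1 to 3 when each library was left out in turn. The count was 1 without scrambled replicate 1, without anti-miR-29a replicate 1 or without anti-miR-29a replicate 4. The median difference of the imprinted genes, 0.01, was -0.0179 with no filter, -0.0546 under quantile normalization and -0.019 under median centring, and ran from -0.0376 to 0.0182 with each library left out, so its sign is not stable. The cause was not tested. Among pairs of neighbours 0 passed, and 0 to 1 when each library was left out, the 1 being Peg13 and Trappc9 without anti-miR-29a replicate 3. The longer seed site left 0 of 4 imprinted genes, and 441 of the 2066 tested genes with a match. Replicate numbers did not pair the samples: deviations of same-numbered samples correlated at -0.11 to 0.01, and 0 of 8 samples correlated best with their own number. At an unadjusted p under 0.05 were 3 imprinted genes as reported, with 10.7% of all tested rows. The count was 7 of 39 with no filter, where 7.06% of all rows had such a p, and the low genes Dio3 and Zim1 were among them. It was 2 under quantile normalization or median centring, with 10.9% and 10.6% of all rows, and 5 with the replicate block, with 10.6%. With each library left out it was 3 to 5, beside 8.77% to 11.4% of all rows. The 5 were reached without scrambled replicate 4, anti-miR-29a replicate 1 or anti-miR-29a replicate 2. The unknown depth limits what can be said of genes under 0.5 FPKM.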
